A study of Oryza sativa Japonica Group with 20 samples.

Results

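Leaves of rice seedlings that had dried in air for 2 h (leaf 2 h) were compared with leaves collected before drying (leaf 0 h). The comparison took 2 arrays a side, 4 of the 20 arrays of the series, and 27,609 of the 27,615 features of the array, all but the 6 control features. The plants were non-transgenic seedlings of the japonica cultivar Nakdong, 14 days old, which had been lifted from soil and kept in water for 1 day. Leaf 2 h plants were then air-dried for 2 h at 32°C and 50% humidity under continuous light of 150 μmol per m2 and s with their roots wrapped against light, and leaf 0 h plants were collected at the start of the treatment. All plants of both groups shared the lifting and the day in water, and time under drying and time in the growth chamber cannot be told apart, since no leaf array of the series held seedlings kept in water for 2 h. The series further holds leaves at 0.5, 6 and 12 h and roots at the same 5 times, with 2 biological replicates on single-colour (Cy3) arrays in each group. Whether a replicate pooled several seedlings is not given in the sources used here. Whole leaves hold several cell types, so a change in a gene's level per cell and a change in the mix of cells cannot be told apart.

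Drying leaves lose water faster than they can replace it, and the hormone abscisic acid accumulates. Stomata then close, and genes for protective proteins are switched on. Among the best known are the dehydrins, hydrophilic proteins that accumulate in water-stressed tissue and of which rice rab21 is one. Photosynthesis is known to decline under water deficit. Its abundant transcripts include those of the small subunit of Rubisco (rbcS), the enzyme that fixes carbon dioxide, and those of the chlorophyll a/b binding proteins (CB1 to CB6 here), which hold the light-harvesting pigments. Most identifiers of the array are accessions of full-length cDNAs (AK) or loci (Os), and names could be paired with identifiers only for genes that the study names itself. Of 12 such genes 11 were analysed, each measured by 10 probes, and the ubiquitin gene ubi was not analysed here.

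The transcripts that carried the clearest named changes are identified by the study's RT-PCR primers, printed for ADF and rab21, which were higher at 2 h, and for rbcS and CB6, leaf genes that were not called.
ADF forward: gccgtgtacgaccacgactt
ADF reverse: ttaggaggtgtggtccttgag
rab21 forward: cgtctaccgtgagaaccaca
rab21 reverse: gtaggcgatgaagctgatga
rbcS forward: accaccgacaccggcgagaa
rbcS reverse: ttgcgctcggctagctcatc
CB6 forward: aacatcctcaccagcctcaa
CB6 reverse: acgcaccatcgatcgtacaa

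Values were the authors' RMA intensities, taken to log2. Array medians were 2563 and 2556 in leaf 2 h and 2534 and 2662 in leaf 0 h. The brightest gene read 64,544 and 64,361 in leaf 2 h and 64,602 and 63,105 in leaf 0 h. Whether changes of genes near this top of the scale are understated was not tested. The 2 arrays of a group correlated at r = 0.923 for 2 h, against 0.959 for 0 h, across genes, which do not count as replicates. The control feature made of random sequences, RANDOM, read 159 and 115 at 2 h and 188 and 175 at 0 h, and served as the mark for dim genes. It was a low mark, since the reporter features gus and sGFP, for genes that non-transgenic plants lack, read 366 and 177 (gus) and 3942 and 2713 (sGFP) at 2 h, against 508 and 465 (gus) and 4225 and 2999 (sGFP) at 0 h. Leaf identity was clear in both groups, as the median over rbcS and CB1 to CB6 was 33,313 and 38,458 in leaf 2 h and 43,665 and 44,987 in leaf 0 h, and these genes were a median of 5.85 log2 units lower in root 0 h than in leaf 0 h.

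By 2 h of drying a broad set of leaf genes stood away from its level at 0 h in both directions. Among the 24,356 genes that read above RANDOM on all 4 arrays, called measured genes here, 1171 were higher (4.81%) and 963 were lower (3.95%) at 2 h (limma, Benjamini-Hochberg adjusted p under 0.05 over all 27,609 genes and a log2 change past 1 or −1). The higher genes had a median log2 change of 1.85 with a median standard error of 0.43, and 488 of them were past 2, 93 past 3 and 13 past 4. The lower genes had a median of −1.53 and a median standard error of 0.36, and 200 were past −2, 20 past −3 and 3 past −4. All 1171 and all 963 had both 2 h arrays beyond both 0 h arrays. They were called on these same arrays, which largely ensures this, so it adds no support. Without regard to the test, 6199 measured genes (25.5%) had both 2 h arrays above both 0 h arrays and 6424 (26.4%) had both below. The median change of all measured genes was −0.003.

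The size of these lists rests on the arrays used for the spread and on single arrays. Only 185 measured genes were higher and 131 lower when the 10 leaf arrays alone were fitted, and 222 were higher, against 161 lower, once replicate 2 of leaf 2 h was omitted. Omitting a 0 h array gave 449 higher, against 292 lower, for replicate 1, and 325 higher, against 147 lower, for replicate 2. With all arrays brought to one distribution by quantile normalization, the median change of all genes moved by −0.10 and the balance turned, to 1362 higher and 1786 lower measured genes. The balance also turned with no change of scaling, to 1092 higher and 1160 lower by a moderated F-test over the 4 leaf times and to 638 and 780 with genes below gus left out. Which direction held more measured genes thus depended on the setting, while the 15 genes named here kept the sign of their change in leaf under each of the 3 scalings tried.

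**Figure D1:**
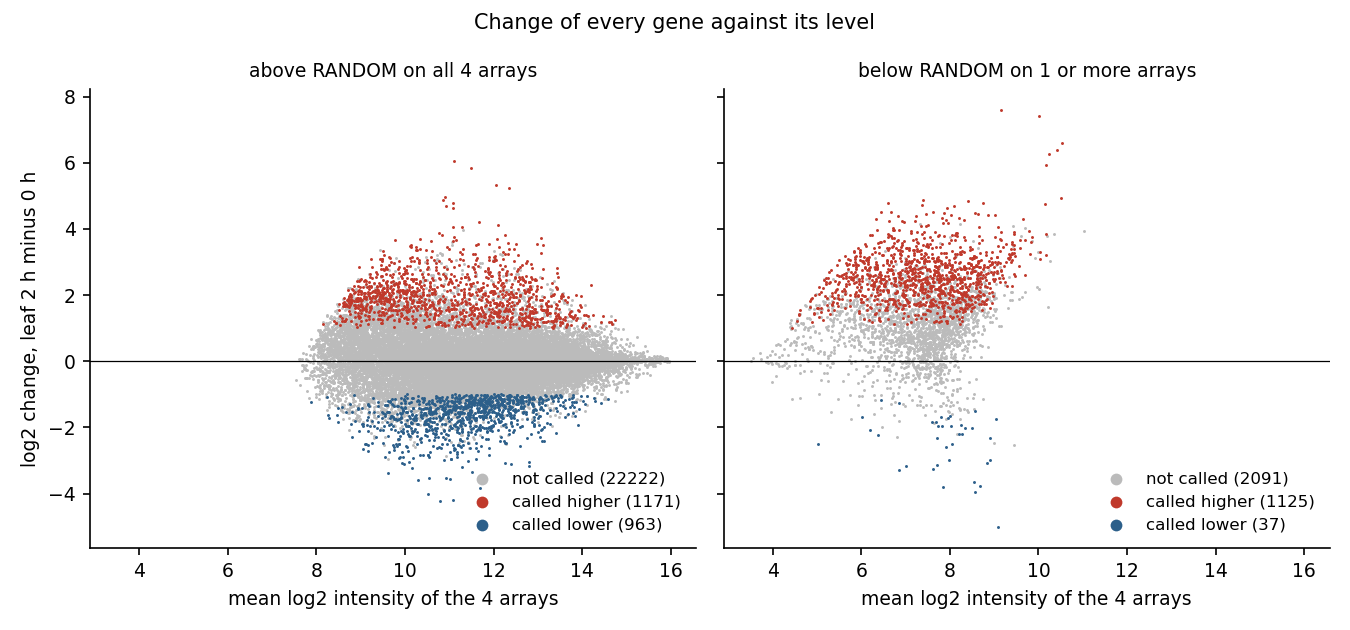
Each point is a gene, with the mean log2 intensity of the 4 arrays on the x axis and the log2 change, leaf 2 h minus leaf 0 h, on the y axis, for genes above RANDOM on all 4 arrays (left) and for genes below it on 1 or more arrays (right). Called genes lie on both sides of 0 in the left panel (1171 higher, 963 lower) and mostly above 0 in the right panel (1125 higher, 37 lower).

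Counted over all 27,609 genes, 2296 (8.32%) were higher and 1000 (3.62%) lower at 2 h, so that most of the excess of higher genes came from dim ones. Of the 932 genes that lay below RANDOM on both 0 h arrays and above it on both 2 h arrays, 561 passed as higher and they made up 24.4% of all higher calls. Their median intensities were 283.7 and 795.2 at 2 h and 96.6 and 68.34 at 0 h, with replicate 2 of leaf 2 h well above replicate 1. For such genes the change is only a bound, taken from the 2 h mean and the 0 h values raised to RANDOM. The bound was at least 1.41 log2 units for the median of the 561 genes, above 1 for 429 of them, above 2 for 103 and above 4 for 5. The highest was at least 6.33, and the lowest, −0.31, sets no rise at all. The 2 h median of replicate 1, 283.7, also lay below gus on that array (366). The reverse class, above RANDOM at 0 h and below it at 2 h, held 12 genes, of which 10 passed as lower by at least 2.15 log2 units (median) and by at least 4.51 for the largest. A further 545 higher and 24 lower genes lay on both sides of RANDOM within a group, and 19 higher and 3 lower genes lay below it on all 4 arrays and are not read here.

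Replicate 2 of leaf 2 h stood apart for dim genes. Genes were ranked on the 16 other arrays and split into 5 bins of equal number. In the dimmest bin the median log2 intensity was 8.21 and 9.02 on the 2 h arrays and 7.82 and 7.70 on the 0 h arrays, and it lay between 6.99 and 8.20 on the 16 other arrays. Both 2 h arrays thus read above every other array in this bin, replicate 2 by far the more. In the next bin the medians were 10.03 and 10.22 at 2 h and 10.03 and 10.01 at 0 h, and in the brightest bin 13.52 and 13.50 at 2 h and 13.38 and 13.47 at 0 h. The dimmest bin stood out for higher calls, with 1177 genes higher (21.3%) and 199 lower (3.6%), against 4.15% to 6.75% higher in the other bins. Of the 2568 measured genes in that bin, 172 were higher and 164 lower. Genes below RANDOM numbered 1480 and 286 on the 2 h arrays and 2626 and 2661 on the 0 h arrays. The part of this shift in the calls of dim genes was not tested. The brightest bin had the fewest lower genes, 33 (0.598%) beside 273 higher (4.94%).

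**Figure D2:**
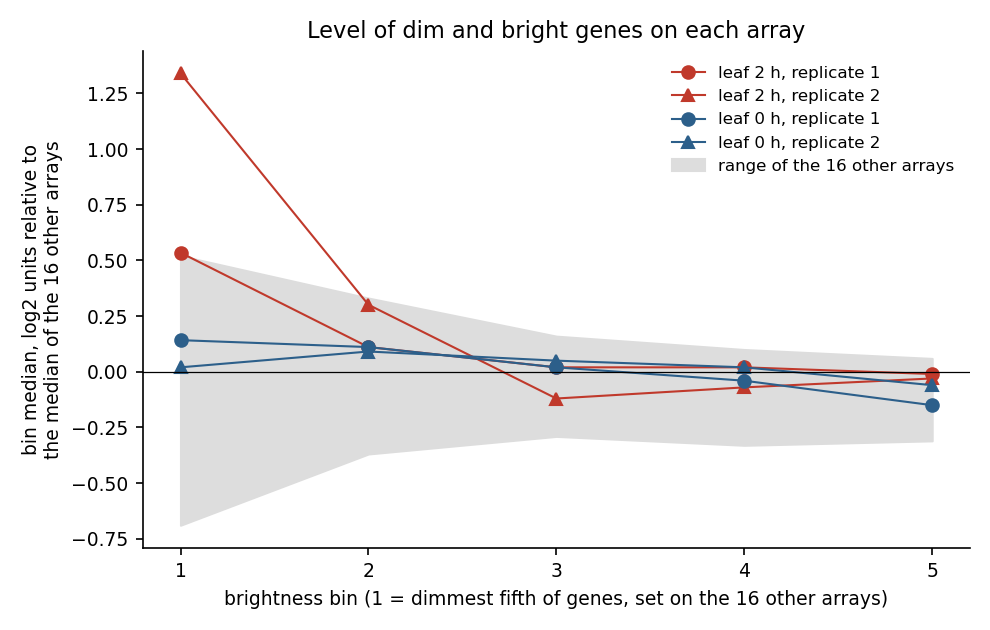
Median log2 intensity of the genes of each brightness bin, from dimmest (1) to brightest (5), on the leaf 2 h and leaf 0 h arrays, as the difference from the median of the 16 other arrays, whose range is shaded. Leaf 2 h replicate 2 lies far above the shaded range for the dimmest bin, leaf 2 h replicate 1 at its upper edge, and all 4 arrays lie within it for the other bins.

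The dehydration marker rab21, a dehydrin, was higher after 2 h. It read 21,739 and 23,853 on the 2 h arrays and 11,038 and 8435 on the 0 h arrays, and the groups did not overlap. The log2 change was 1.24 ± 0.28 (SE, n = 2 a side), or 2.36-fold, with a limma adjusted p = 0.0172. The call was lost when the 10 leaf arrays alone were fitted (limma adjusted p = 0.085) and when replicate 2 of either group was omitted (0.134 in both cases). In the time course rab21 was part of the way up at 2 h, reading 14,492 and 9262 after 0.5 h, 46,026 and 44,502 after 6 h, then 50,970 and 57,281 after 12 h.

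The other marker known to be induced by water deficit, dip1, read 40,463 and 40,120 at 2 h and 17,326 and 24,480 at 0 h. Both 2 h arrays lay above both 0 h arrays. Its log2 change of 0.97 ± 0.28 (limma adjusted p = 0.0394) passed the test but stopped just short of the required size of 1, so it was not called. The test was not passed with the 10 leaf arrays alone (limma adjusted p = 0.13) or with the 4 arrays compared alone (0.19). The gene read 45,004 and 48,495 after 6 h, then 47,156 and 45,262 after 12 h, little above its 2 h values.

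The actin depolymerizing factor gene ADF had the smallest adjusted p among the genes with names. Such factors sever and depolymerize actin filaments and so remodel the cytoskeleton. The study named ADF as one of the genes most strongly induced on these arrays, so its rise follows in part from that choice. ADF read 39,633 and 44,139 at 2 h and 8819 and 8230 at 0 h, with close replicates and no overlap. The log2 change was 2.30 ± 0.27, or 4.91-fold (95% confidence interval of the log2 change 1.72 to 2.87, limma adjusted p = 0.000407). It kept its call without any 1 of the 4 arrays and lost it only when those 4 arrays were fitted alone (limma adjusted p = 0.082). ADF was not called at 0.5 h, with 11,718 and 8297, and it stayed near its 2 h level with 41,102 and 44,317 after 6 h, then 44,054 and 47,907 after 12 h.

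The gene of an AWPM-19-like protein, AWPM, a membrane protein family named after a wheat plasma membrane protein that accumulates on abscisic acid treatment, read 14,116 and 8722 at 2 h and 6537 and 2656 at 0 h. Every 2 h array was above every 0 h array, but the replicates of each group differed widely. AWPM, like ADF, was named by the study for its strong induction on these arrays. The log2 change of 1.41 ± 0.47 did not pass (limma adjusted p = 0.0631). The call was gained in several other settings, among them a block for the replicate number (limma adjusted p = 0.0417) and a robust variance prior with a trend (0.0366). It was not gained with the 10 leaf arrays alone (0.182) or with the 4 arrays compared alone (0.208).

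The genes rbcS and CB1 to CB6 of the photosynthetic apparatus were all a little dimmer at 2 h, and none passed the test. By 12 h CB1, CB3 and CB4 were called lower, with log2 changes of −1.86, −1.71 and −1.90, and the others were not called. Several read near the top of the scale at 0 h, and whether this made their falls look smaller was not tested. For rbcS, the intensity was 33,313 and 43,004 at 2 h and 51,988 and 44,987 at 0 h, a log2 change of −0.35 ± 0.81 (limma adjusted p = 0.845). For CB1 it was 28,445 and 36,264 at 2 h and 43,665 and 46,160 at 0 h, a log2 change of −0.48 ± 0.51 (limma adjusted p = 0.609). In both genes the higher 2 h array stayed below the lower 0 h array.

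CB3 read 38,102 and 44,517 at 2 h and 58,566 and 50,626 at 0 h, and CB4 36,967 and 43,993 at 2 h and 52,302 and 50,188 at 0 h. For CB2 the intensity was 34,271 and 30,842 at 2 h and 40,821 and 36,380 at 0 h. CB6 read 14,942 and 13,769 at 2 h and 22,672 and 16,165 at 0 h. The groups did not overlap in any of these 4 genes, with log2 changes of −0.40 ± 0.45 for CB3, −0.35 ± 0.38 for CB4, −0.25 ± 0.38 for CB2 and −0.42 ± 0.54 for CB6 (limma adjusted p from 0.635 to 0.753).

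CB5 alone overlapped, with 28,303 and 38,458 at 2 h and 34,875 and 41,305 at 0 h (log2 change −0.20 ± 0.51, limma adjusted p = 0.861), and its sign turned to 0.02 without leaf 2 h replicate 1. Thus 6 of the 7 leaf genes had both 2 h arrays below both 0 h arrays, which 23.7% of all genes had. Of the 7, 0 were called, against 8.32% higher and 3.62% lower over all genes. A count of 0 in so few genes does not set them apart. The median log2 change of the 7 genes was −0.35, against 0.07 over all genes. The 95% confidence intervals still allowed a log2 change of −1.57 to 0.61 for CB1 and of −2.09 to 1.38 for rbcS, with the spread of each gene pooled over both organs. For rbcS that spread was set mainly in root, where the SD of the log2 values was 1.35 at 2 h and up to 1.99 at other times, against 0.04 to 0.31 in the leaf groups. For CB1 the SD was up to 1.34 in root, against up to 0.25 in leaf. With the 10 leaf arrays alone neither gene passed (limma adjusted p = 0.538 for rbcS and 0.315 for CB1).

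**Figure D3:**
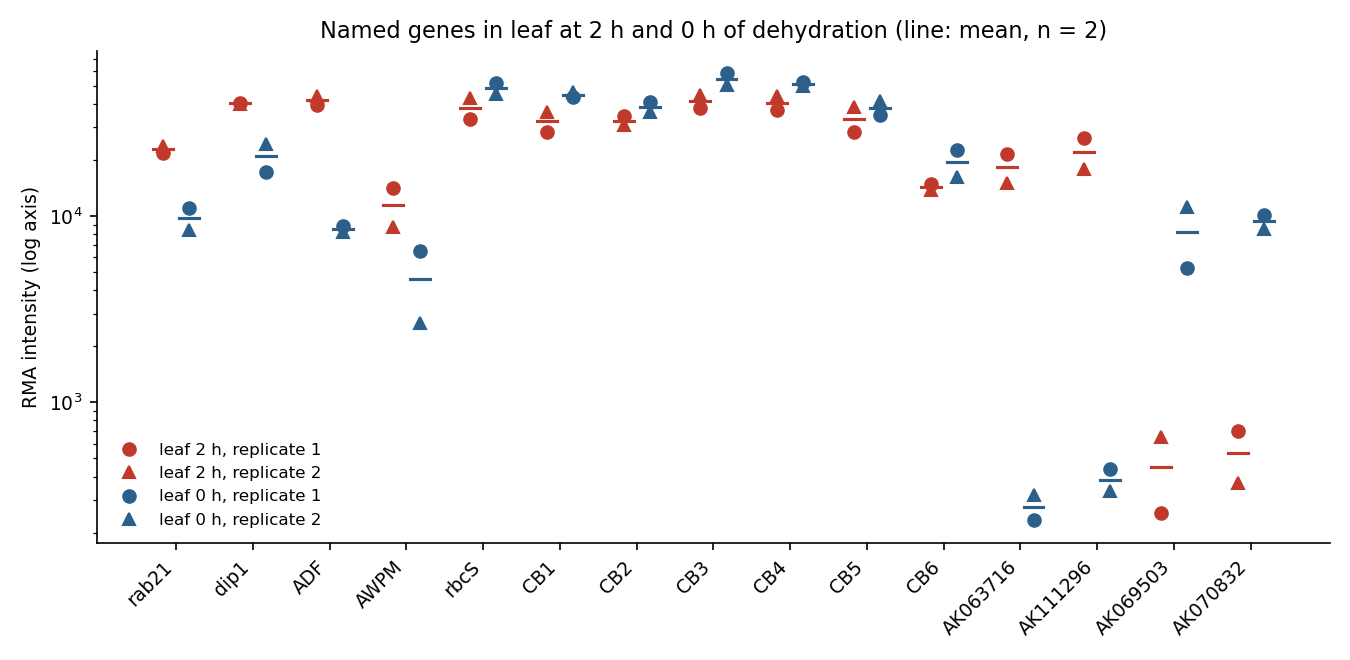
RMA intensity (log axis) of the 11 genes named by the study and of 4 further identifiers on the leaf 2 h and leaf 0 h arrays, with circles for replicate 1, triangles for replicate 2 and a line at the mean of the 2 arrays. ADF and rab21 are clearly apart, the photosynthesis genes sit slightly lower at 2 h than at 0 h, and the 4 identifiers at the right differ by more than 1 order of magnitude.

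The largest changes of measured genes belonged to identifiers without a name. AK063716 read 21,538 and 15,058 at 2 h and 232 and 319 at 0 h, a log2 change of 6.05 ± 0.36 (66.2-fold, limma adjusted p = 6.75e-06). AK111296 read 26,386 and 17,794 at 2 h and 437 and 333 at 0 h, a log2 change of 5.83 ± 0.51 (56.8-fold, limma adjusted p = 7.82e-05). The 0 h values of both lay above RANDOM but below gus on the same arrays, so these folds rest on signal near background. With the 0 h values raised to gus, a bound set after the values were seen, the change was at least 5.21 log2 units for AK063716 and at least 5.48 for AK111296.

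Over the time course these identifiers parted. AK063716 had 504 and 561 after 0.5 h, 20,417 and 16,079 after 6 h, then 21,805 and 22,417 after 12 h, so that the level of 2 h was held. AK111296 was brightest at 2 h, with 433 and 1447 after 0.5 h, 12,901 and 8357 after 6 h, then 13,472 and 10,933 after 12 h.

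Among the lower genes, AK069503 read 256 and 649 at 2 h and 5291 and 11,144 at 0 h, a log2 change of −4.24 ± 0.59 (18.8-fold lower, limma adjusted p = 0.00164). Its 2 h value of 256 lay below gus on the same array. With that value raised to gus, again after the values were seen, the fall was at least 3.98 log2 units. AK070832 read 700 and 371 at 2 h and 10,162 and 8560 at 0 h, a log2 change of −4.19 ± 0.56 (18.3-fold lower, limma adjusted p = 0.00121). In both, replicates of a group differed far less than the groups did. AK069503 was already at 832 and 1971 by 0.5 h and stayed low, with 315 and 228 after 6 h, then 361 and 113 after 12 h. AK070832 was lowest at 2 h, with 1870 and 6811 after 0.5 h, 1478 and 1672 after 6 h, then 1980 and 1237 after 12 h.

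A smaller set was called in every case, that is in the fit of all arrays and again with each of the 4 arrays left out in turn. It was counted after the values were seen and held 164 higher (0.673%) and 74 lower (0.304%) measured genes. ADF, AK063716, AK111296, AK069503 and AK070832 were in it and rab21 was not. The 164 had a median log2 change of 2.54 and the 74 a median of −2.47. All 164 and all 74 were also called after quantile normalization, 129 and 61 with the 10 leaf arrays alone, and 51 and 18 by limma's treat test against a log2 change of 1. The median intensity of the 164 was 10,343 and 10,078 at 2 h and 1339 and 1919 at 0 h, and that of the 74 was 985 and 1143 at 2 h and 5752 and 6167 at 0 h.

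The levels of 2 h were largely those of the later times. The median intensity of the 1171 higher genes was 986 and 1014 at the start, 1191 and 1922 after 0.5 h, 3857 and 4954 after 2 h, 4137 and 4074 after 6 h, then 3988 and 4302 after 12 h. That of the 963 lower genes was 4632 and 4795 at the start, 2188 and 2947 after 0.5 h, 1635 and 1380 after 2 h, 1531 and 1198 after 6 h, then 1346 and 1334 after 12 h. The genes were chosen on the 0 h and 2 h arrays, so the values at these times are a description. The 0.5 h arrays are not part of the contrast but help to set each gene's spread, and so the lists. Replicate 1 of leaf 0.5 h stood apart, with RANDOM at 362, an array median of 1954 and 21.1% of all genes below RANDOM, and on it 188 of the 1171 and 52 of the 963 genes lay below RANDOM, against 1 and 2 on replicate 2. Omitting replicate 1 of leaf 0.5 h together with replicate 2 of root 0.5 h raised the counts at 2 h to 1927 higher and 1554 lower measured genes.

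**Figure D4:**
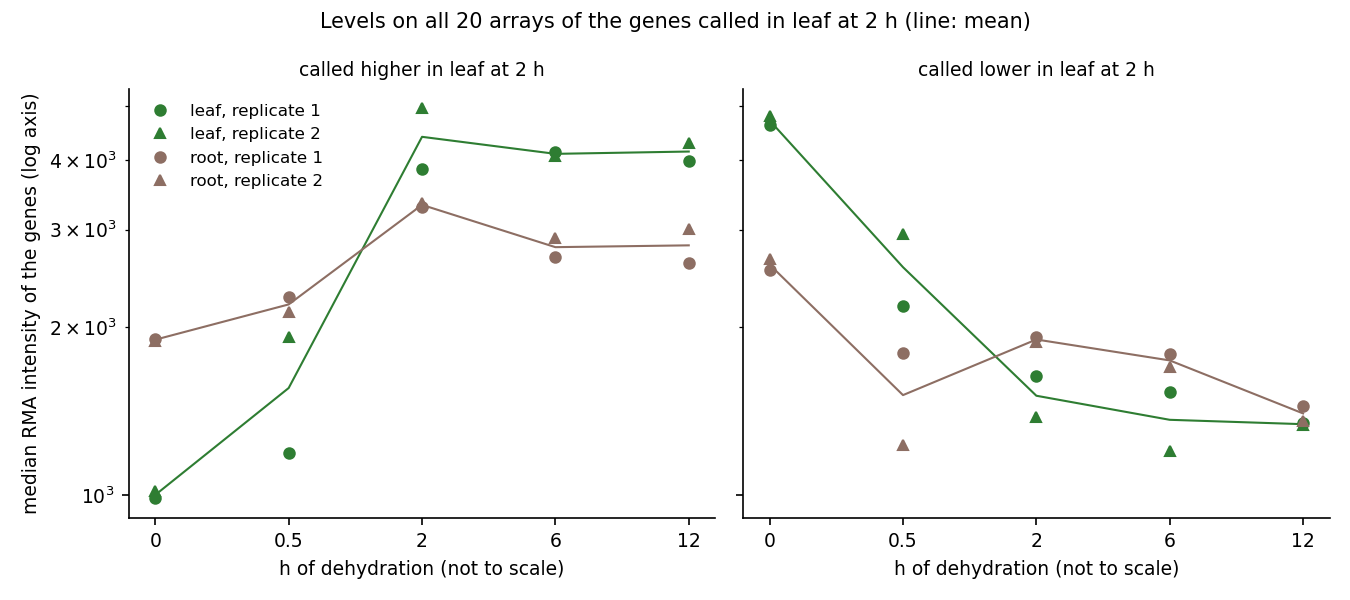
Median RMA intensity (log axis) of the 1171 measured genes called higher (left) and the 963 called lower (right) in leaf at 2 h, on every leaf and root array against hours of dehydration, with lines through the means of the 2 arrays. The leaf medians at 6 and 12 h lie close to those at 2 h, and the root medians move the same way over a smaller range.

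Features that stand for organelle genes are given apart. No file annotates them, and they are taken by the prefix of their identifiers, BAC for 53 features and CAA for 108, the prefixes of the entries for the rice mitochondrial and plastid genomes. The median intensity of the BAC features was 4276 and 7758 at 2 h and 1692 and 799 at 0 h, with no overlap, although replicates differed widely in both groups. All 53 had a positive log2 change, from 0.18 to 3.46 with a median of 2.07, and 49 had both 2 h arrays above both 0 h arrays, against 30.9% of all genes. Of the 53, 20 were called higher (37.7%, against 8.32% of all genes) and 0 lower. The median stayed between 1.51 and 2.62 with each of the 4 arrays left out and was 2.08 after quantile normalization.

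BAC features also varied widely between replicates at other times, with medians of 1087 and 4600 after 0.5 h, 6072 and 4864 after 6 h, then 4182 and 2309 after 12 h. In root they read 2776 and 3009 at 2 h and 1478 and 3567 at 0 h, where 0 of 53 were called, against 1.67% higher and 1.79% lower over all genes. The difference between the organs passed in 0 of 53, against 2.28% of all genes, and counts of 0 in so few features do not set them apart. Neighbouring features of a small genome may share transcripts, so the 53 are not independent.

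The CAA features had medians of 15,752 and 18,451 at 2 h and 14,902 and 6372 at 0 h, where replicate 2 was low. Both 2 h medians lay above both 0 h medians, but 2 of 108 features were called higher (1.85%) and 0 lower, against 8.32% and 3.62% of all genes. Their median log2 change was 0.25, with a range from −2.29 to 3.94, and it was −0.005 without leaf 0 h replicate 2. Over the other leaf times they read 10,323 and 18,432 after 0.5 h, 19,182 and 17,091 after 6 h, then 15,560 and 13,150 after 12 h.

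**Figure D5:**
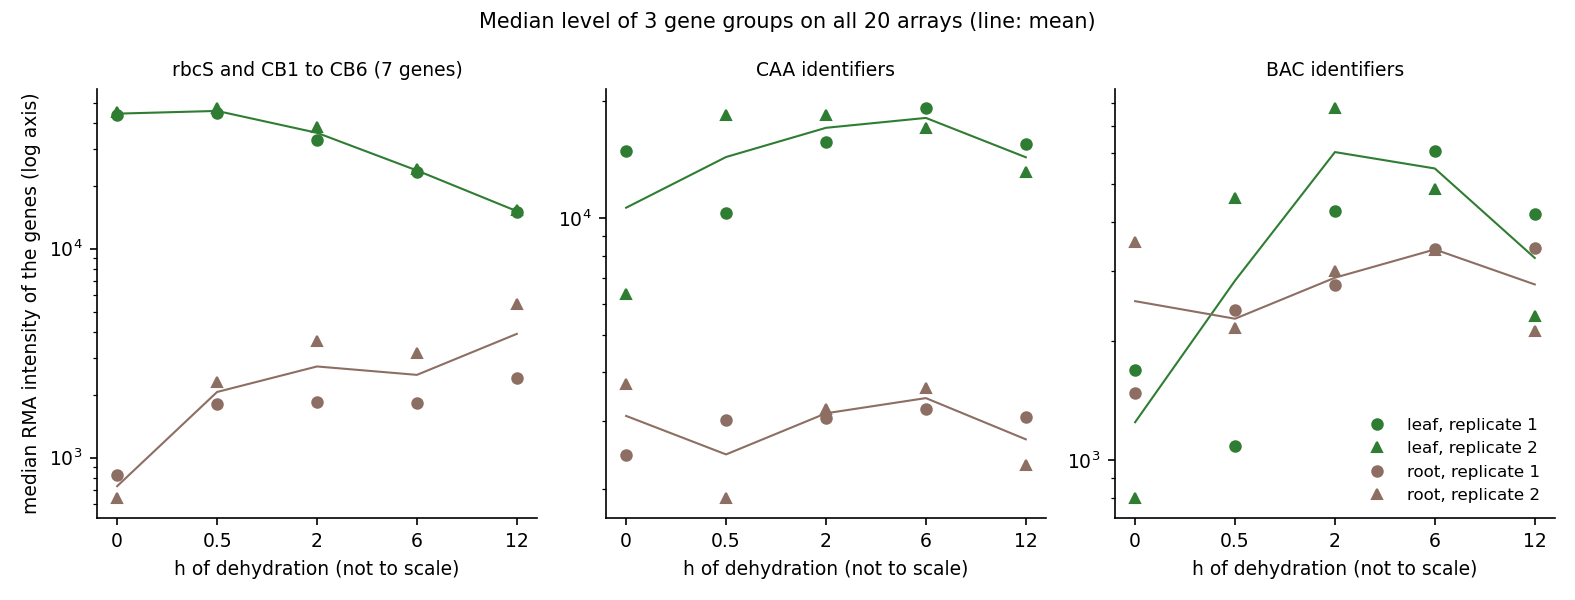
Median RMA intensity (log axis) of rbcS and CB1 to CB6 (left), of the CAA features (middle) and of the BAC features (right) on every array against hours of dehydration, with lines through the means of the 2 arrays. In leaf the first group declines steadily after 0.5 h, the CAA features show no clear trend, and the BAC features lie higher at 2 h than at 0 h with replicates far apart at 0.5 h.

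Genes that mark the other organ were followed as well. The list of 100 genes that most exceeded later leaf (6 and 12 h) in unstressed root, chosen on none of the 4 arrays, had median intensities of 193 and 368 at 2 h and 168 and 181 at 0 h. Replicate 2 of leaf 2 h was again the high one, with 5 of the 100 genes below RANDOM, against 43 on replicate 1 and 52 and 49 at 0 h. Of the 100 genes, 17 were called higher and 9 lower, against 8.32% and 3.62% of all genes, and of the 36 that were measured, 0 were higher and 7 lower, against 4.81% and 3.95% of all measured genes. The 100 genes chosen the opposite way, highest in the later leaf, had medians of 8207 and 6986 at 2 h and 5910 and 6955 at 0 h, and 24 were higher and 5 lower (19 and 5 of the 91 that were measured), with a median log2 change of 0.02. Both lists were chosen on leaves that had dried for longer. The choice thus favours genes that fall on drying in the first list and genes that rise in the second.

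Roots of seedlings given the same treatment, measured on arrays of their own, had fewer calls at 2 h, with 460 higher (1.67%) and 494 lower (1.79%). Whether a leaf array and a root array shared seedlings is not given in the sources used here. Of the 1171 higher measured genes of leaf, 204 were also higher in root, which is 17.4% of the leaf list and 44.3% of the root list. Of the 963 lower genes, 58 were also lower in root, 6.02% of the leaf list and 11.7% of the root list. The median root change was 0.45 for the first list and −0.35 for the second, against −0.008 for all genes measured in leaf. In the smaller set called in every case, 93 of 164 higher genes (56.7%) were higher in root too, and 8 of 74 lower genes (10.8%) were lower in root. The median intensity of the 74 at 0 h was 1315 and 1342 in root, against 5752 and 6167 in leaf. That of the 164 at 0 h was 3028 and 3112 in root. Whether the lower start of the 74 in root left less room for a fall there was not tested. The spread of each gene was estimated over both organs, so the tests are not fully separate. The difference of the root change from the leaf change passed for 104 of the 1171 and 83 of the 963 genes (adjusted p under 0.05). Over all genes 2.28% passed (0.587% positive and 1.69% negative with a size past 1). Both lists were chosen on the leaf change, which is part of this difference, so a larger share follows in part from the choice. Of these lists, 15 and 10 genes were called in the opposite direction in root.

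Single genes differed in this respect. The study named ADF and AWPM for strong induction, and CB1 to CB6 for a rise in root, on these same arrays. Their root changes thus follow in part from that choice, as do the differences from leaf of CB2 and CB6. ADF read 39,369 and 51,017 in root at 2 h and 4710 and 3523 in root at 0 h, a log2 change of 3.46 ± 0.27 in root and 2.30 ± 0.27 in leaf, and the difference of 1.16 did not pass (limma adjusted p = 0.119). AWPM had a root log2 change of 4.08 ± 0.47 (limma adjusted p = 0.000311), and its difference from leaf of 2.66 did not pass (limma adjusted p = 0.054). It passed in 6 other settings (limma adjusted p from 0.0196 to 0.0482), among them values raised to RANDOM (0.04) and omission of replicate 1 of leaf 2 h (0.0265), and the adjusted p was 0.225 with replicate 2 of leaf 2 h omitted. For AK063716 the changes were 6.23 ± 0.36 in root and 6.05 ± 0.36 in leaf, a difference of 0.18 with a 95% confidence interval of −0.93 to 1.29. CB6 differed most, since it read 4045 and 5262 in root at 2 h and 102 and 84 in root at 0 h, under RANDOM on both 0 h arrays. Its root change was at least 4.91 log2 units and the difference from leaf at least 5.33. The limma adjusted p was 0.00562 for the fitted difference of 6.05 and 0.000473 with values raised to RANDOM. CB2 also differed, by 2.33 ± 0.53 (limma adjusted p = 0.0405), but that call was lost with replicate 2 of leaf 2 h omitted (0.157) and with either 0 h array omitted (0.104 and 0.119).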

How the data were processed

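Leaf 2 h and leaf 0 h arrays were taken from the 20 arrays of the series by their titles. The authors ran Cy3-labelled RNA on a rice 3′-tiling array, and RMA combined each gene's probes. The deposited values are intensity on a linear scale. The background step and the set of arrays normalized together are not given in the sources used here. Values were log2-transformed and neither rescaled nor filtered. Another table of all 20 arrays was not used, and a probe table of root 0 h gave the number of probes per gene.

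A model of 10 groups was fitted to all 20 arrays with lmFit and eBayes in limma 3.58.1 (R 4.3.3) (10 residual and 3.43 prior degrees of freedom). Contrasts were leaf 2 h minus leaf 0 h, the same in root, and the difference of the root change from the leaf change. P-values were adjusted by Benjamini-Hochberg over 27,609 genes, and the thresholds are those of the study's methods. A gene below RANDOM on both arrays of its dimmer group is given as a bound, with each value of that group raised to RANDOM. The procedure was also run on simulated data with independent noise for each gene. Those data held no shift of dim genes and no deviations shared between genes of an array, so they cannot test for either. The number of arrays limits the precision.

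Genes were named where the study gives an identifier, and otherwise the 2 largest rises and 2 largest falls among called genes that were above RANDOM on all 4 arrays without overlap. Parts of the rule that need gene descriptions, and the gene lists, could not be applied, because 0 of 27,609 identifiers matched the RefSeq table. The members and lists were chosen with earlier results of these data known. The alternatives were other tests, sets of arrays, scalings, filters and variance priors, a block for the replicate number, and omission of each of the 4 arrays. A filter at the gus feature and the omission of BAC and CAA identifiers were added after seeing the data.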

Additional observations from a re-analysis of the deposited data

Results flagged for a closer look

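For 6 photosynthesis genes both 2 h arrays lay below both 0 h arrays in leaf and above them in root. None of these leaf changes passed the test, and of the root changes those of CB2 and CB6 passed. The study chose CB1 to CB6 because they rose in root on these same arrays. Their rise in root, and in part their difference from leaf, thus follows from that choice. The root change minus the leaf change, in log2 units, was 6.05 for CB6 (limma adjusted p = 0.00562) and 2.33 for CB2 (limma adjusted p = 0.0405), and in these genes the difference itself passed the test. For CB6 the value rests on root 0 h intensities below RANDOM, so it is at least 5.33. The difference was 3.04 for rbcS (limma adjusted p = 0.177), 1.501 for CB1 (0.3), 2.14 for CB3 (0.0984) and 1.56 for CB4 (0.145), and the test of the difference did not pass in these 4 genes. Leaf intensities of these genes at 0 h, from 16,165 for CB6 to 58,566 for CB3, were far above those of root, so equal log2 changes stand for very unequal amounts of signal.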

How the results depend on the processing

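With 2 arrays in each group, counts of called genes moved with most settings, and 500 of the values recomputed for single genes kept their direction and side of the threshold, 17 passed it anew, 14 no longer passed and 3 reversed. Counts are given as higher and lower over all genes, then over genes above RANDOM on all 4 arrays. They were 76 and 23, then 51 and 18 with limma's treat test, and 5081 and 2261, then 2854 and 2156 with no test. Fitting only the 10 leaf arrays gave 246 and 143, then 185 and 131. Fitting only the 4 arrays compared gave 11 and 1, then 4 and 0 in limma, with 6226 genes at an unadjusted p under 0.05. Lower genes numbered 1962, then 1786 after quantile normalization of all arrays and 1864, then 1722 within each tissue, beside 2001 and 1866 higher genes, and the median of all genes moved by −0.10 in both. Leaving out the dimmest 25% of genes gave 912 higher genes, leaving out those below RANDOM 1005, and leaving out those below gus 638 higher and 780 lower, also among genes above RANDOM. Without the leaf 0.5 h array 1 and root 0.5 h array 2 the counts were 3557 and 1606, then 1927 and 1554. Leaving out each of the 4 arrays in turn gave 280 to 3196 higher and 158 to 1004 lower, then 222 to 1513 and 147 to 980, lowest without leaf 2 h replicate 2 for higher genes and with leaf 0 h replicate 2 omitted for lower genes, and highest when leaf 2 h replicate 1 was omitted. The lone array left in a group was assumed to vary like the other groups. The cause of these differences was not tested.

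Omitting each of the 4 arrays, the change of CB5 in leaf ranged over −0.42 to 0.019, positive without replicate 1 of leaf 2 h, and the root change minus the leaf change of AK063716 ranged over −0.075 to 0.44, negative when replicate 2 of leaf 2 h (−0.075) or of leaf 0 h (−0.044) was omitted. The replicate numbers were not taken to pair the arrays, since the deviations of same-numbered leaf 2 h and leaf 0 h arrays correlated at −0.0013 across genes and 7 of the 45 such pairs of groups were below 0.1. Most of the 45 were above 0.1, up to 0.72, so arrays of one number shared deviations in much of the series. With the replicate number as a block 3015 genes were higher and 1362 lower, then 1600 and 1319, and among named genes in leaf the block changed the call of AWPM alone, which then passed (limma adjusted p = 0.0417).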
